A study of Mus musculus with 55 samples.

Results

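Small pre-BII cells were compared with 4 other populations of B lineage cells, all sorted out of the bone marrow of mice, and transcripts that were higher, or lower, in them than in every other population are described. They were sorted as B220+ CD25+ cells without surface immunoglobulin, by small size. The other populations were pre-BI cells (B220+ c-kit+), large pre-BII cells (B220+ CD25+ without surface immunoglobulin, large), immature B cells (B220 low, surface IgM+) and mature B cells (B220 high, surface IgM+). Total RNA was hybridised to 2 oligonucleotide array designs with different probe sets, the first set and the b set. The titles assigned 10 of 55 arrays to small pre-BII cells, against 12 to pre-BI, 11 to large pre-BII, 10 to immature and 12 to mature B cells. These were 5 of 26 preparations, sorts 1, 3, 8, 9 and 10, against 6 preparations of pre-BI and 5 each of large pre-BII, immature and mature B cells. Strain, age, treatment and the number of animals behind a preparation are not given in the labels, so a p-value measures only the spread between these preparations. A bulk measurement cannot tell fewer cells of a type from less RNA per cell.

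Small pre-BII cells are B cell precursors of the bone marrow that have stopped dividing after the burst of divisions driven by the pre-B cell receptor. They rearrange the immunoglobulin light chain genes with the Rag1 and Rag2 recombinase, and a cell whose light chain pairs with its heavy chain goes on to become an immature B cell with IgM on its surface. Their setting is therefore one of resting cells between a dividing stage and the first stages with a complete receptor.

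One first-set array titled as mature B cells was left out because its 6584 values equalled those of mature B sort 11, which left 54 arrays. Before quantile normalisation the brightest array had a 5.6-fold (first set) or 4.22-fold (b set) higher mean than the dimmest, over the values left after removal of the extreme 2% at each end. Values are normalised intensities, which can be negative. The noise limit, which is 2 robust standard deviations of the negative values, was 251 for the first set, where 40% of values exceeded it, and 319 for the b set, where 20.1% did. An 18S ribosomal RNA control read 6531 and 5603 in small pre-BII sorts 1 and 3 (first set) and 13510 and 7062 (b set), against at most 68 in sorts 8 to 10. Results are therefore also given for sorts 1 to 3 and sorts 8 to 11 apart. The control was not high throughout sorts 1 to 3. On the first set it read 483 in pre-BI sort 2, 156 in immature B sort 2 and 307 in mature B sort 3. The fit of sorts 1 to 3 therefore did not hold it constant between populations.

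Of 10229 probe sets tested, 13 were higher in small pre-BII cells than in every other population, which is 0.127% of those tested. Another 6 probe sets were lower in them than in every other population, which is 0.0587%. A probe set counted when limma's adjusted p was under 0.05 in all 4 comparisons with the same sign. With sort number as a replicate block in the fit, 22 were higher and 10 lower, and Mogs and Rfc1 were the 2 of the 19 that lost their call. The higher ones were Reln, Prm1, Rag1, Cerk, Ttc7b, Atp1b1, Sec11c, Spg21, Nfkbia, Nnt, Adam10 and Gstm1 and 1 probe set without a gene symbol. The lower ones were Sec61a1, Mogs, Rfc1 and Actn4 and 2 probe sets without a symbol. Small pre-BII cells had the highest population mean for 2349 tested probe sets and the lowest for 1806. Every small pre-BII preparation lay above every other preparation for 20 probe sets (0.196% of those tested), 9 of them among the 13 higher ones. Every small pre-BII preparation lay below all others for 2 probe sets (0.0196%), none of them among the 6 lower ones.

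The markers given for the sorts went with the labels in part. Ptprc, the gene of the B220 antigen, had a mean of 4460 in small pre-BII cells, against 2930 in pre-BI cells, 2750 in large pre-BII, 8320 in immature and 9170 in mature B cells. All 4 differences of Ptprc passed, with the small pre-BII level above both other precursors and below both later stages (limma adjusted p = 0.0045, 0.00312, 0.000462 and 2.89e-05). Il2ra, the CD25 chain used in the gate, was at 71 to 437 in small pre-BII cells on its brighter probe set, and 1 of 5 preparations exceeded the noise limit. It read -10 to 70 in large pre-BII cells, which were also sorted as CD25+, no other preparation of any population exceeded the limit, and it passed in no comparison (limma adjusted p from 0.215 to 0.701). Ighm, the heavy chain of IgM, averaged 11200 in small pre-BII cells on the probe set X03690_s_at, against 6130, 8170, 10800 and 5440 in pre-BI, large pre-BII, immature and mature B cells. On this probe set it passed only against mature B cells (limma adjusted p = 0.02). A brighter probe set of Ighm, J00475_V00821_f_at, averaged 14300, against 10100, 12600, 14300 and 12800 in these populations. It passed only against pre-BI cells (limma adjusted p = 0.0125) and not against mature B cells (0.786), so the 2 probe sets disagreed. Kit, the pre-BI gate marker, stayed under the limit in all small pre-BII preparations, with a mean of 74.5, against 285 in pre-BI cells (limma adjusted p = 0.0662). In pre-BI cells too the mean of Kit lay under the limit, and 2 of 6 preparations exceeded it. The cell cycle gene Mki67 averaged 1700 ± 587 in small pre-BII cells, against 12600 ± 1380 in large pre-BII cells (SD, n = 5 each).

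The promoters of Reln, Prm1 and Cerk, which are 3 of the 4 genes with the largest weakest difference, and of the recombinase gene Rag1 are shown so that their upstream regions can be compared. Each line holds the 250 bases before the RefSeq start of the gene in build GRCm38.p6, read along the gene's own strand, with capitals for matches to the motifs named after them. The Reln region lies at chr5:22344706-22344955 on the minus strand, the Prm1 region at chr16:10796824-10797073 on the minus strand, the Rag1 region at chr2:101649533-101649782 on the minus strand and the Cerk region at chr15:86186142-86186391 on the minus strand.
Reln: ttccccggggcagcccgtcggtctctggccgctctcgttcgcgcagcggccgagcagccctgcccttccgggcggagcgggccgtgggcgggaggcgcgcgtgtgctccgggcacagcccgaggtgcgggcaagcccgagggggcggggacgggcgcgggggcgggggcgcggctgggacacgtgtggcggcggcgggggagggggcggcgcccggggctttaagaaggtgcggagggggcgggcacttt
Prm1: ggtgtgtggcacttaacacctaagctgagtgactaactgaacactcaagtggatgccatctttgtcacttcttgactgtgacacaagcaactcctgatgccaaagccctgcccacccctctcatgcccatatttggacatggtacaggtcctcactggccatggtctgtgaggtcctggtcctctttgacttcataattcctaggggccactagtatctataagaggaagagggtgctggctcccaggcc
Rag1: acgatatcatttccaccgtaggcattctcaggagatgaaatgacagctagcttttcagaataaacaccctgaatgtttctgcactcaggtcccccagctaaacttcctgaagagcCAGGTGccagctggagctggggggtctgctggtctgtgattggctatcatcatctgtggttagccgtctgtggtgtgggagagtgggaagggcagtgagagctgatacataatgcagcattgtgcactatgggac
Cerk: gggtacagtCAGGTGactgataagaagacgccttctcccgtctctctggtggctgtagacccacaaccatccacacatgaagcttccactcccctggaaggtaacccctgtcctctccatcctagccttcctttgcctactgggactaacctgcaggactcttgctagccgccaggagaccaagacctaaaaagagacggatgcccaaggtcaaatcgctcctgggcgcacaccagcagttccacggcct
The capitals in Rag1 and Cerk are the letters CAGGTG, an E-box of the kind that E2A proteins bind. Searched on both strands, CAGGTG was in 2 of 10 promoters of higher genes, in 2 of 3 of lower genes (Rfc1 and Actn4) and in 17.2% of 32851 promoters. These 32851, called all promoters here, held every listed start of a gene, with 1 chromosome left out. For the higher and lower genes 1 start a gene was counted, and Sec11c, Nnt and Sec61a1 had no promoter among them. The letters GGAANNGAA, a composite site of ETS and IRF factors, were in 1 of 10 promoters of higher genes, that of Spg21, and in 6.99% of all promoters. TGTTTAC (forkhead core, 3.17% of all promoters), TTTGAA (cell cycle homology region, 16%), TTTGGCGC (E2F core, 0.417%) and TTCNNNGAA (7.02%) were in none of these 10 and 3 promoters. A match is a description of these letters in this window.

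Reln encodes reelin, a secreted matrix glycoprotein known from the positioning of neurons, and it had the largest weakest difference of all. Its intensities were 1199, 2046, 1921, 3326 and 1620 in small pre-BII sorts 1, 3, 8, 9 and 10. Against these, pre-BI cells ran from -55 to 121 with a median of -5.5, large pre-BII cells were at 94, 111, 165, 121 and 79, immature B cells at 223, 252, 286, 89 and 166 and mature B cells at -27, -78, 17, -24 and -33. No other preparation came near the lowest small pre-BII value, and of the others only 2 immature B preparations exceeded the noise limit. Reln was at least 7.6-fold higher in small pre-BII cells than in pre-BI, large pre-BII and mature B cells (limma adjusted p = 6.36e-11, 5.43e-10 and 4.37e-11). Against immature B cells, where 3 of 5 preparations lay under the limit, it was at least 7.4-fold higher (limma adjusted p = 2.5e-08). For folds and log2 differences of single genes, values of the dimmer population under the noise limit were first set to it and population means then compared. "At least" means that 1 or more of its preparations lay under that limit. Reln was also called within sorts 1 to 3 (highest adjusted p = 0.0386) and within sorts 8 to 11 (0.000417).

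Prm1 encodes protamine 1, which packs DNA in sperm heads. It read 927, 1010, 1021, 673 and 1092 in the small pre-BII preparations. The pre-BI preparations ran from -42 to 45 with a median of -18.5, large pre-BII cells read 75, 112, 91, -634 and 196, immature B cells 99, -97, 27, -36 and 216 and mature B cells 237, 34, 27, 6 and 7. All 5 small pre-BII preparations exceeded the noise limit and none of the 21 others did. The difference was at least 3.71-fold in each comparison, with limma adjusted p between 1.23e-08 and 2.58e-07. Within sorts 8 to 11 Prm1 was called (highest adjusted p = 0.0029), and within sorts 1 to 3 it missed the threshold (highest adjusted p = 0.0532). The suffix of its probe set, m27500_f_at, marks probes shared by similar sequences in this array maker's naming, so a related transcript could add to it. The neighbouring gene Prm2, for the other protamine of sperm, averaged -19 ± 51 in small pre-BII cells (SD, n = 5) and passed in no comparison. Socs1, a suppressor of cytokine signalling that lies on the other side of the protamine genes on chromosome 16, averaged 888 ± 862 in small pre-BII cells (SD, n = 5), against 70.5 in pre-BI cells, 557 in large pre-BII, 16.6 in immature and 19.2 in mature B cells. Its differences passed except that from large pre-BII cells (limma adjusted p = 0.986).

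Rag1 encodes the DNA-cutting subunit of the V(D)J recombinase. Small pre-BII sorts 1, 3, 8, 9 and 10 had Rag1 intensities of 6221, 5247, 2938, 3313 and 8190. Pre-BI cells ran from 1250 to 3737 with a median of 2224, and large pre-BII cells read 1334, 961, 776, 762 and 2202. Immature B cells read 186, 109, 118, 106 and 96, and mature B cells 17, -29, -23, -135 and -23. The pre-BI range overlapped that of small pre-BII sorts 8 and 9, whereas the large pre-BII range lay wholly under the lowest small pre-BII value and every immature and mature B preparation lay under the noise limit. Rag1 was 2.23-fold higher in small pre-BII than in pre-BI cells (log2 difference 1.16 ± 0.38, limma adjusted p = 0.0184) and 4.35-fold higher than in large pre-BII cells (2.12 ± 0.40, limma adjusted p = 7.57e-05). It was at least 19.2-fold higher than in immature and in mature B cells (limma adjusted p = 3.71e-11 and 2.51e-12). The comparison with pre-BI cells was the weakest, and without small pre-BII sort 10 the highest adjusted p was 0.0751. Within sorts 1 to 3 the weakest log2 difference was 1.13 (adjusted p = 0.273) and within sorts 8 to 11 it was 1.26 (adjusted p = 0.151).

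**Figure D1:**
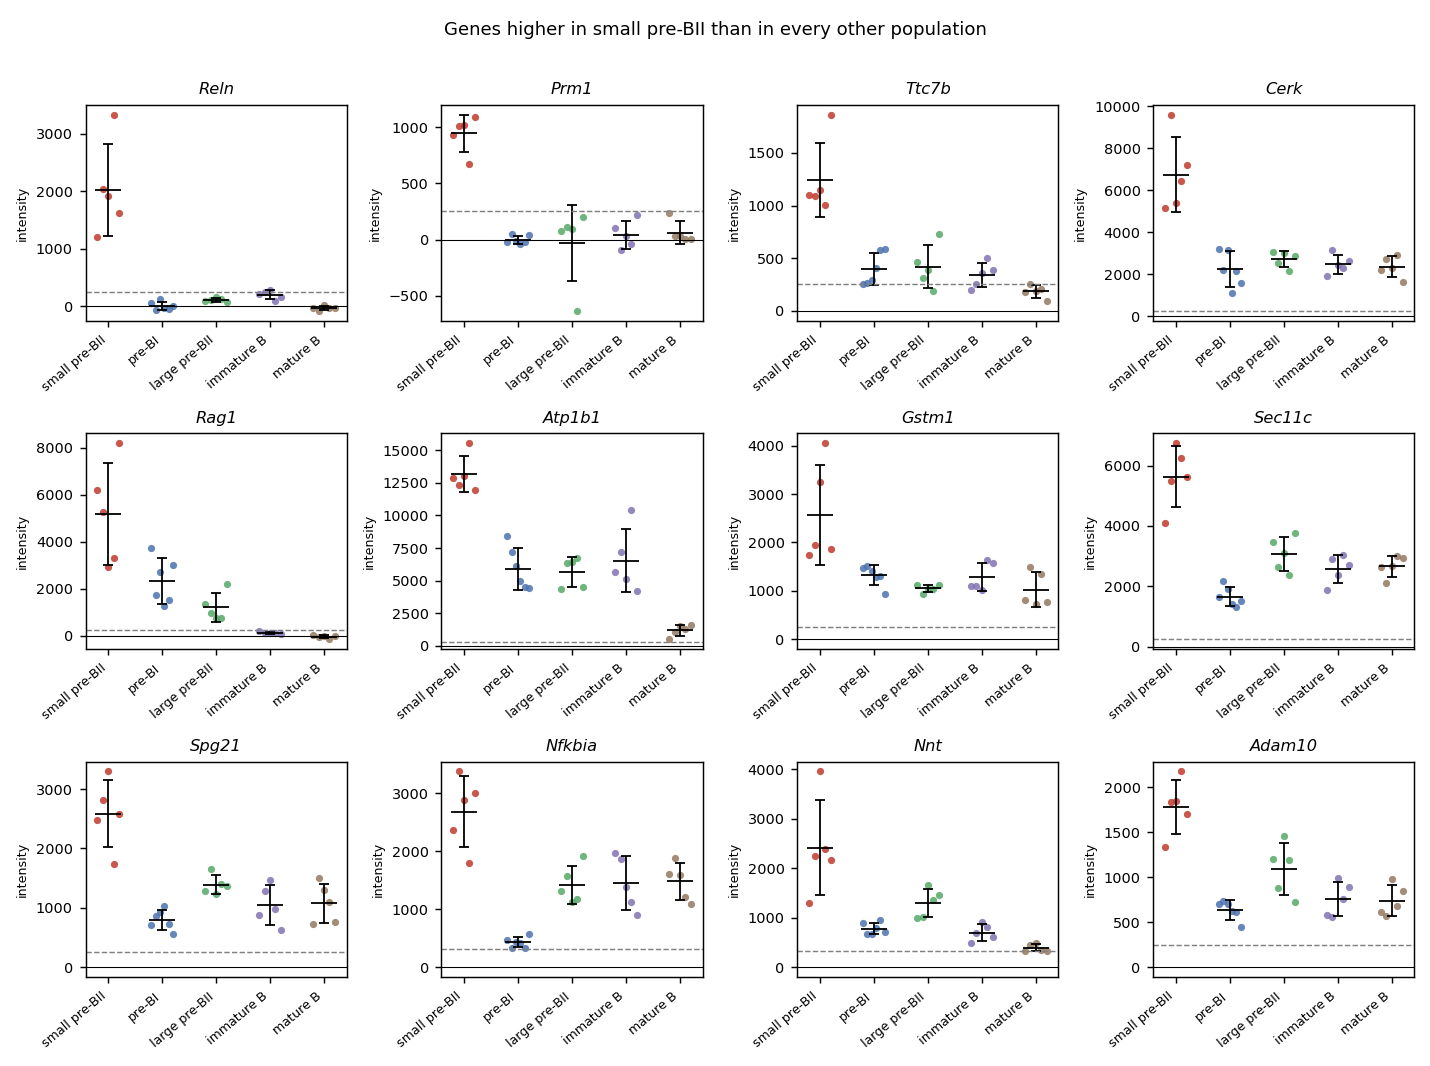
Normalised intensity of the 12 named genes that were higher in small pre-BII cells than in every other population, with 1 point per preparation, the mean as a bar, ± SD, and the noise limit as a dashed line. Reln and Prm1 lie at or under the limit in nearly all other preparations, whereas Atp1b1, Cerk and Sec11c are well above it in every population.

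Cerk, ceramide kinase, which makes ceramide 1-phosphate, read 5124, 9572, 5363, 6449 and 7185 in the small pre-BII preparations. Values of pre-BI cells ran from 1093 to 3212, with a median of 2183, large pre-BII cells read 3040, 2520, 3005, 2153 and 2839, immature B cells 1912, 3144, 2429, 2274 and 2626 and mature B cells 2199, 2719, 2296, 2928 and 1625. The other 4 populations lay side by side and every small pre-BII preparation lay above all of them. Cerk was 3.15-fold higher than in pre-BI cells (log2 difference 1.65 ± 0.29, SE; limma adjusted p = 1.75e-05), and 2.44-, 2.69- and 2.85-fold higher than in large pre-BII, immature and mature B cells (limma adjusted p = 0.000962, 0.000661 and 0.000165). It was called within sorts 8 to 11 (highest adjusted p = 0.0253) and not within sorts 1 to 3 (0.264), at weakest log2 differences of 1.25 and 1.31.

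Ttc7b encodes a scaffold of the enzyme complex that makes phosphatidylinositol 4-phosphate at the plasma membrane. It read 1100, 1094, 1148, 1006 and 1860 in small pre-BII sorts 1, 3, 8, 9 and 10. The pre-BI preparations ran from 256 to 587 with a median of 353, large pre-BII cells read 463, 315, 386, 187 and 733, immature B cells 196, 258, 364, 498 and 387 and mature B cells 180, 259, 192, 205 and 89. Sort 10 was high in both pre-BII populations, and the groups did not overlap. Ttc7b was 3.22-fold higher in small pre-BII than in pre-BI cells (limma adjusted p = 0.00129). It was at least 3.01-, 3.55- and 4.78-fold higher than in large pre-BII, immature and mature B cells, of which 4, 4 and 1 of 5 preparations exceeded the limit (limma adjusted p = 0.00289, 0.00165 and 4.79e-06). It passed in all 4 comparisons in neither batch of sorts alone, at weakest log2 differences of 1.52 in sorts 1 to 3 (highest adjusted p = 0.101) and 1.32 in sorts 8 to 11 (0.163).

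Atp1b1, the beta subunit of the sodium and potassium pump, was the brightest of the 13. Its intensities were 12845, 12364, 13058, 15541 and 11990 in small pre-BII cells. Pre-BI cells ran from 4416 to 8391 with a median of 5522.5, large pre-BII cells read 4371, 6359, 6422, 6762 and 4490, immature B cells 5645, 7170, 5158, 10389 and 4244 and mature B cells 521, 1040, 1502, 1312 and 1600. Every small pre-BII value was above all others, and the closest was immature B sort 9. Atp1b1 was 2.28-, 2.35- and 2.11-fold higher in small pre-BII cells than in pre-BI, large pre-BII and immature B cells (limma adjusted p = 0.0022, 0.00322 and 0.022), and 11.8-fold higher than in mature B cells (3.56 ± 0.30 on the log2 scale, SE; limma adjusted p = 3.62e-10). Without immature B sort 11 the highest adjusted p was 0.089.

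Adam10, a membrane protease that releases the outer parts of surface proteins such as Notch, read 1337, 1839, 1848, 2176 and 1707 in small pre-BII cells. Its means were 636 ± 106 in pre-BI cells, 1090 ± 288 in large pre-BII, 758 ± 188 in immature and 739 ± 170 in mature B cells (SD). Large pre-BII sort 8, at 1454, lay above small pre-BII sort 1, and no other pair overlapped. The fold over large pre-BII cells was 1.66 (0.73 ± 0.21 on the log2 scale, SE; limma adjusted p = 0.04974), just inside the threshold, and 18 of 26 fits that left out 1 preparation lost it. The other folds of Adam10 were 2.8, 2.38 and 2.43 over pre-BI, immature and mature B cells (limma adjusted p = 1.83e-05, 0.000889 and 0.000344). A dimmer probe set of Adam10, AF011379_at, averaged 383 in small pre-BII cells and passed in no comparison.

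Sec11c encodes a catalytic subunit of the signal peptidase, which cuts signal peptides from proteins entering the endoplasmic reticulum. It read 4093, 5488, 6743, 6250 and 5607 in small pre-BII cells. Values of pre-BI cells ran from 1306 to 2165 with a median of 1577.5, large pre-BII cells read 3461, 2649, 3092, 2378 and 3769, immature B cells 1881, 2918, 2373, 3024 and 2715 and mature B cells 2626, 2103, 2674, 2992 and 2938. The groups did not overlap. Sec11c was 3.4-, 1.84-, 2.18- and 2.1-fold higher in small pre-BII cells than in pre-BI, large pre-BII, immature and mature B cells (limma adjusted p = 5.29e-08, 0.00175, 0.000215 and 0.0002). It was called within sorts 8 to 11 (highest adjusted p = 0.00492), and within sorts 1 to 3 its weakest log2 difference was 0.65 (adjusted p = 0.59).

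Sec61a1 encodes the channel through which nascent proteins enter the endoplasmic reticulum. Its probe set aa051500_g_at read 497, 774, 800, 737 and 1486 in small pre-BII cells. The pre-BI preparations ran from 1546 to 3479 with a median of 1713, large pre-BII cells read 1783, 1175, 1758, 1954 and 1737, immature B cells 1509, 2602, 1561, 1636 and 1919 and mature B cells 1898, 1647, 2368, 1848 and 1822. Small pre-BII sort 10 lay above large pre-BII sort 2, and the other small pre-BII preparations lay under every other preparation. Sec61a1 was 2.53-, 2.06-, 2.25- and 2.36-fold lower in small pre-BII cells than in pre-BI, large pre-BII, immature and mature B cells (limma adjusted p = 0.000434, 0.0108, 0.0088 and 0.00248). Another probe set of the gene averaged 950 in small pre-BII cells against 1050, 850, 1130 and 1310 in these populations and passed in no comparison. The probe sets of Sec61a1 therefore disagreed.

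Mogs encodes glucosidase I, which trims the first glucose from newly attached N-glycans. It read 36, 340, 239, 195 and 344 in small pre-BII cells, of which sorts 3 and 10 exceeded the limit. Pre-BI cells ran from 830 to 1770 with a median of 1331.5, large pre-BII cells read 838, 884, 619, 335 and 360, immature B cells 384, 592, 645, 598 and 779 and mature B cells 1031, 590, 664, 825 and 671. Only large pre-BII sort 9 reached down into the small pre-BII range. Mogs was at least 4.43-, 1.97-, 2.06- and 2.61-fold lower than in pre-BI, large pre-BII, immature and mature B cells (limma adjusted p = 5.27e-06, 0.0131, 0.0193 and 0.00135). Without immature B sort 11 the highest adjusted p was 0.0651, and with sort number as a replicate block it was 0.0724, so the call was lost in both.

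**Figure D2:**
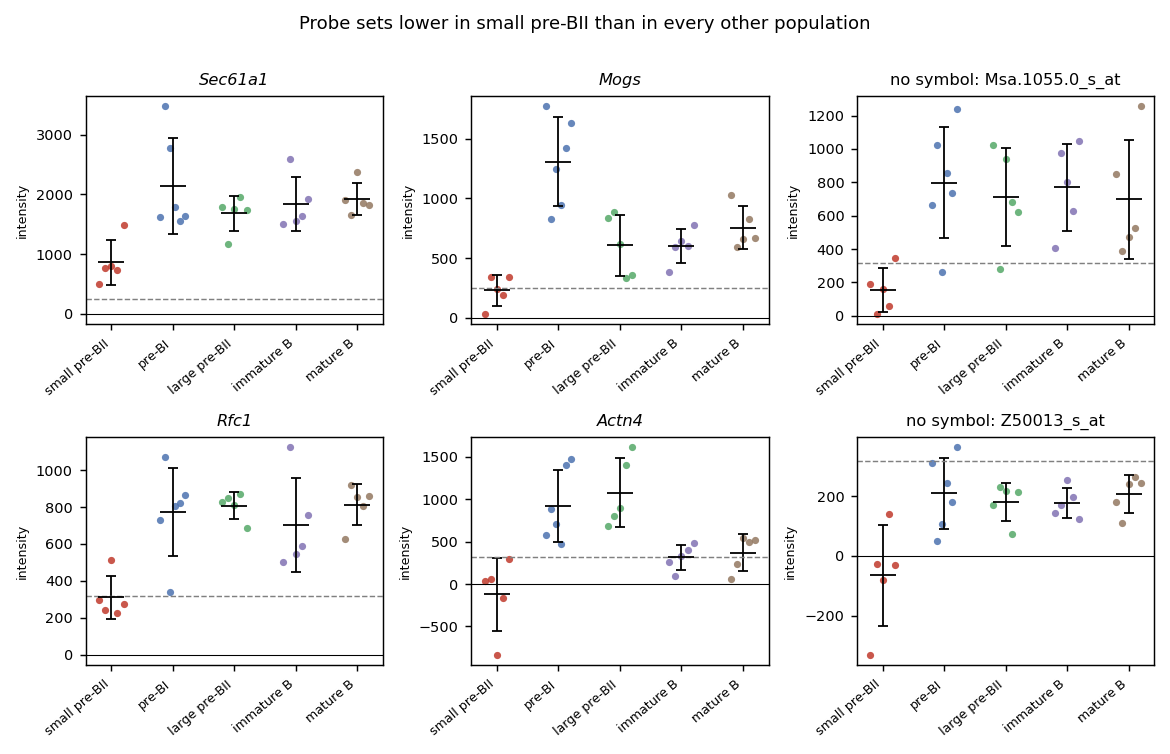
Normalised intensity of the 6 probe sets that were lower in small pre-BII cells than in every other population, with 1 point per preparation, the mean as a bar, ± SD, and the noise limit as a dashed line. For Rfc1, Mogs and Actn4 most or all small pre-BII preparations lie under the limit, and Z50013_s_at is under it in all but 1 preparation.

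The other lower probe sets were dim in small pre-BII cells. Rfc1, the large subunit of the clamp loader of DNA replication, read 295, 244, 512, 227 and 275 in small pre-BII cells, and 1 of 5 preparations exceeded the limit. Values of pre-BI cells ran from 341 to 1070 with a median of 814.5, large pre-BII cells read 826, 847, 813, 870 and 685, immature B cells 501, 1124, 544, 587 and 756 and mature B cells 627, 920, 854, 806 and 859. The overlap came from small pre-BII sort 8 with the lowest pre-BI and immature B preparations. Rfc1 was at least 2.09-, 2.3-, 1.92- and 2.3-fold lower in small pre-BII cells than in pre-BI, large pre-BII, immature and mature B cells (limma adjusted p = 0.00127, 0.000939, 0.0147 and 0.00104). Without immature B sort 2 the highest adjusted p was 0.0628, and with sort number as a replicate block it was 0.0687, so the call was lost in both.

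Actn4 encodes alpha-actinin 4, a crosslinker of actin filaments. Its named probe set, of the kind with shared probes, read 30, 62, -832, -162 and 294 in small pre-BII cells, all under the limit. The pre-BI preparations ran from 470 to 1475 with a median of 798.5, large pre-BII cells read 688, 798, 890, 1397 and 1611, immature B cells 254, 99, 329, 398 and 488 and mature B cells 54, 232, 545, 497 and 520. Both dividing precursor populations lay clear of the small pre-BII range, whereas immature and mature B cells overlapped it. Actn4 was at least 2.64- and 3.2-fold lower than in pre-BI and large pre-BII cells (limma adjusted p = 5.96e-05 and 6.84e-05), and also passed against immature and mature B cells (limma adjusted p = 0.022 and 0.0112). These have no fold, because 3 of 5 preparations of each exceeded the limit and their mean log2 levels did not. Another probe set of Actn4, w64452_s_at, passed against pre-BI and large pre-BII cells (limma adjusted p = 0.000186 and 0.000247) and not against immature or mature B cells (0.915 and 0.6). The call was lost without small pre-BII sort 9 (highest adjusted p = 0.0893).

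Both lower probe sets without a symbol are on the b set. The brighter of them read 188, 13, 162, 59 and 349 in small pre-BII cells and averaged 798, 711, 772 and 698 in pre-BI, large pre-BII, immature and mature B cells, at least 2.23-, 2.0-, 2.25- and 1.96-fold lower (highest limma adjusted p = 0.0066), with 1 of 5 small pre-BII preparations over the limit. The other, Z50013_s_at, exceeded the limit in 1 preparation, of pre-BI cells, so it has no fold. Its means were -65.6 in small pre-BII cells and 210, 181, 178 and 208 in the other populations in the same order, all under the limit of 319. Its call rests on differences of the fit between values nearly all under the noise limit, so it cannot be told from noise here. The higher probe set without a symbol, also of the b set and of the kind with shared probes, read 382, 390, 1131, 473 and 265 in small pre-BII cells. No other preparation read more than 61, and 4 of 5 small pre-BII preparations exceeded the limit. It was at least 1.45-fold higher (log2 difference 0.54 ± 0.35, SE). Its 4 limma adjusted p-values, at most 6.74e-07, belong to larger differences of the fit (log2 4.82 to 6.07), whose floor of 6.89 lies far under the limit. It was called within sorts 8 to 11 (highest adjusted p = 0.000827).

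Nnt encodes the mitochondrial transhydrogenase that makes NADPH, and read 1305, 2244, 3953, 2386 and 2168 in small pre-BII cells. It averaged 781 ± 117 in pre-BI cells, 1300 ± 286 in large pre-BII, 700 ± 165 in immature and 396 ± 76.2 in mature B cells (SD). Small pre-BII sort 1, the lowest, lay within the range of large pre-BII cells, which reached 1660. The folds were 2.93, 1.78, 3.31 and 5.81 (limma adjusted p = 3.11e-05, 0.0367, 3.67e-05 and 3.39e-08), and the call was lost without small pre-BII sort 8 (highest adjusted p = 0.13). Gstm1, a glutathione transferase, read 1736, 1938, 3244, 4053 and 1858 in small pre-BII cells. Its highest other preparation was an immature B one at 1626, so that the groups did not overlap. Gstm1 was 1.85-, 2.31-, 1.92- and 2.47-fold higher than in pre-BI, large pre-BII, immature and mature B cells (limma adjusted p = 0.014, 0.00175, 0.0344 and 0.000837). Its call was lost without small pre-BII sort 9 (highest adjusted p = 0.132).

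Nfkbia encodes the inhibitor of NF-kB that NF-kB itself induces. Its named probe set read 2359, 3373, 2875, 1792 and 3000 in small pre-BII cells. Pre-BI cells were at 338 to 579, far under this, and the other 3 populations averaged 1420 ± 324 in large pre-BII, 1450 ± 464 in immature and 1480 ± 321 in mature B cells (SD, n = 5 each). Single preparations of these 3 populations reached above small pre-BII sort 9. Nfkbia was 6.19-fold higher than in pre-BI cells (2.63 ± 0.20 on the log2 scale, SE; limma adjusted p = 7.47e-09) and 1.88-, 1.89- and 1.8-fold higher than in the others (limma adjusted p = 0.0162, 0.0326 and 0.0314). A brighter probe set of Nfkbia passed only against pre-BI cells (limma adjusted p = 1.28e-07) and not against large pre-BII, immature or mature B cells (0.0598, 0.17 and 0.123). The call of the named probe set was lost without immature B sort 11 (highest adjusted p = 0.133).

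Spg21 encodes maspardin, an endosomal protein whose human gene is altered in a form of hereditary spastic paraplegia. It read 2474, 2822, 3297, 1746 and 2582 in small pre-BII cells, and averaged 801 ± 171 in pre-BI cells, 1390 ± 161 in large pre-BII, 1050 ± 330 in immature and 1080 ± 332 in mature B cells (SD). The groups did not overlap, with large pre-BII sort 2 at 1649 the nearest. The folds of Spg21 were 3.22, 1.83, 2.52 and 2.45 (limma adjusted p = 9.95e-06, 0.0256, 0.00108 and 0.000815), and the call was lost without small pre-BII sort 8 (highest adjusted p = 0.0784). Among the 26 fits that left out 1 preparation each, the call was lost in 18 for Adam10, 9 for Nfkbia, 7 for Nnt, 5 each for Gstm1, Spg21 and Actn4, 4 each for Mogs, Rag1 and Atp1b1 and 2 for Rfc1. It was lost in none for Reln, Prm1, Ttc7b, Cerk, Sec11c and Sec61a1. All 19 probe sets kept their direction in all 4 comparisons within each batch of sorts. Both batches are parts of the data on which the 19 were selected, so this is no independent check. In sorts 1 to 3 alone, with 2 small pre-BII preparations, 1 of the 19 was called, and in sorts 8 to 11 alone, with 3, it was 5. All of these were higher ones, and no lower probe set of the 19 was called in either batch.

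**Figure D3:**
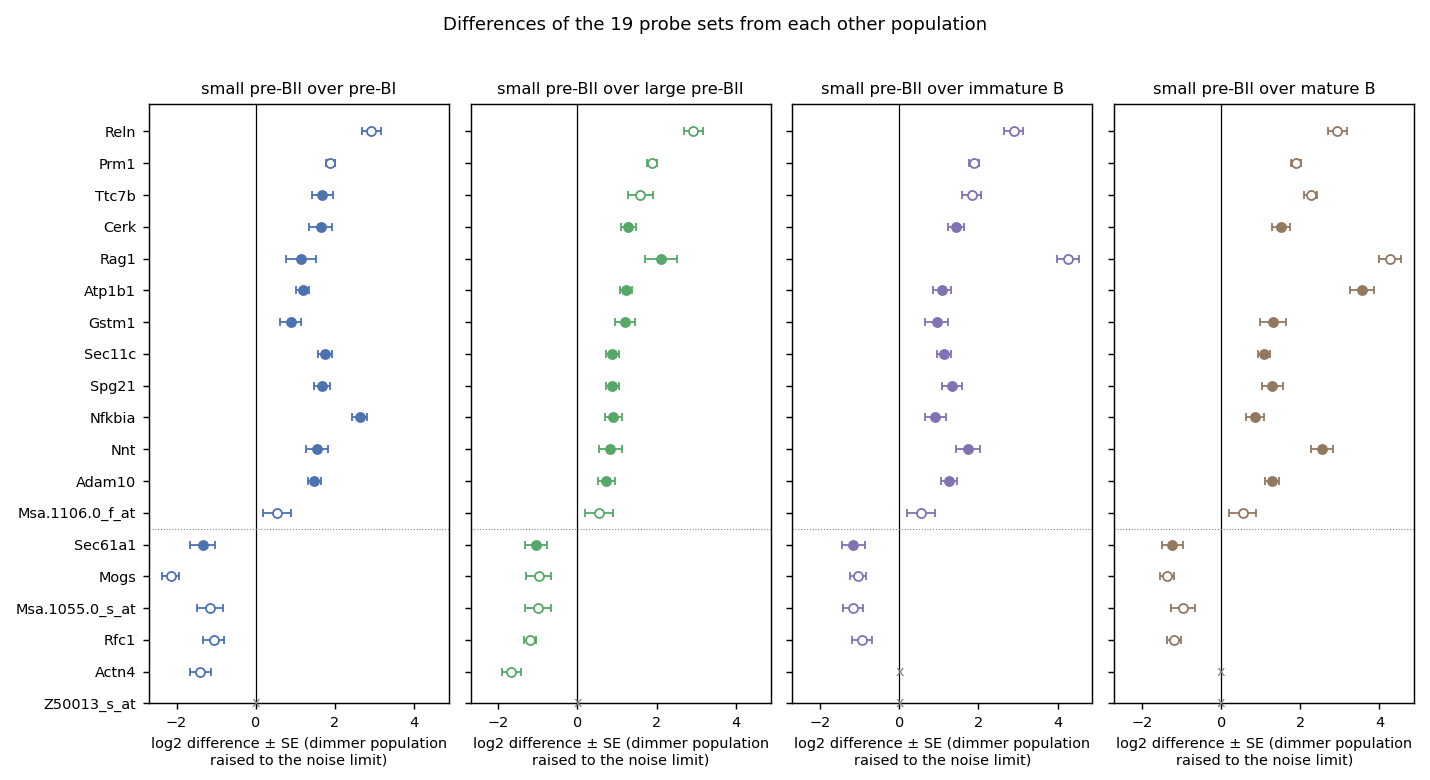
Log2 difference of small pre-BII cells from each other population for the 19 probe sets, with values of the dimmer population raised to the noise limit, ± SE. Open symbols are bounds and crosses mark comparisons without a fold. Rag1 against immature and mature B cells and Atp1b1 against mature B cells lie farthest from 0, and many comparisons with large pre-BII cells lie near 1 or under it.

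Beside these, 37 probe sets (0.362% of those tested) were higher in small pre-BII cells than in all 4 populations with 3 of the 4 comparisons passed, and 26 (0.254%) were lower. The comparison that did not pass was most often that with a neighbouring stage. Among the 37 it was large pre-BII cells for 17, immature B cells for 14 and pre-BI and mature B cells for 3 each. Among the 26 it was large pre-BII cells for 14, immature B cells for 9, mature B cells for 2 and pre-BI cells for 1. The gene nearest the threshold from outside was Marcks, an actin-binding substrate of protein kinase C, which averaged 2040 in small pre-BII cells against 801, 1010, 874 and 170 in pre-BI, large pre-BII, immature and mature B cells (adjusted p = 0.05641 against large pre-BII). Among the lower ones it was Pip4k2a, a phosphatidylinositol phosphate kinase, at 779 against 1400, 1170, 2310 and 2340 (adjusted p = 0.06627 against large pre-BII), while Actn4 at 0.02196 was just inside.

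Several of these genes take part in light chain rearrangement or its control. Polm, the polymerase mu that fills gaps during end joining of light chain genes, averaged 8390 ± 2350 in small pre-BII cells, against 1180 ± 553 in pre-BI cells, 2900 ± 920 in large pre-BII, 5640 ± 1440 in immature and 1470 ± 465 in mature B cells (SD). It was 7.49-, 2.91- and 5.83-fold higher than in pre-BI, large pre-BII and mature B cells (limma adjusted p = 1.72e-07, 0.002 and 3.13e-06) and did not pass against immature B cells (0.621). Irf4, a transcription factor needed for light chain rearrangement, averaged 4970 ± 2650, against 711 ± 326 in pre-BI cells, 2770 ± 494 in large pre-BII, 1380 ± 454 in immature and 780 ± 332 in mature B cells, and did not pass against large pre-BII cells (0.475). Its small pre-BII preparations spread widely and overlapped those of large pre-BII cells. Tcf12, an E protein that binds E-boxes, averaged 2330 ± 637 in small pre-BII cells, against 906 in pre-BI cells, 1800 in large pre-BII, 895 in immature and 770 in mature B cells, and likewise did not pass against large pre-BII cells (0.55).

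The E protein antagonist Id3 lay on the lower side, at 547 ± 141 in small pre-BII cells, against 1200 ± 124 in pre-BI cells, 731 ± 236 in large pre-BII, 1430 ± 323 in immature and 1990 ± 544 in mature B cells. It was 2.25-, 2.64- and 3.63-fold lower than in pre-BI, immature and mature B cells (limma adjusted p = 0.000884, 0.000552 and 5.19e-06) and did not pass against large pre-BII cells (0.465). Mef2c, a transcription factor of B cell receptor responses, averaged 204 ± 156 in small pre-BII cells, against 678 in pre-BI cells, 438 in large pre-BII, 1140 in immature and 2680 in mature B cells, and did not pass against large pre-BII cells either (0.417). The adaptor Lat2 averaged 98.6 in small pre-BII cells, against 288 in pre-BI cells, 168 in large pre-BII, 1930 in immature and 2080 in mature B cells. The actin bundler Lcp1 averaged 2170, against 5500, 2250, 8390 and 10200 in the same populations. Neither passed against large pre-BII cells (limma adjusted p = 0.643 for Lat2 and 0.97 for Lcp1), where Lcp1 was at nearly the same level.

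The progenitor factor Myb averaged 12600 ± 3220 in small pre-BII cells, against 7800 ± 1290 in pre-BI cells, 5920 ± 1090 in large pre-BII, 3660 ± 839 in immature and 390 ± 198 in mature B cells (SD). Only the difference from pre-BI cells did not pass (limma adjusted p = 0.129). Syk, the kinase that the pre-B cell receptor activates, averaged 12000 in small pre-BII cells, against 3840, 7320, 8330 and 6070 in pre-BI, large pre-BII, immature and mature B cells, and did not pass against immature B cells (0.367). Eps8, an actin capping protein, averaged 930 ± 65.4 in small pre-BII cells, against 240, 462, 483 and 211, and missed the threshold against immature B cells (0.0881). The 2 probe sets of Pim2, a survival kinase, averaged 1270 and 1710 in small pre-BII cells and neither passed against immature B cells (0.0985 and 0.327).

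**Figure D4:**
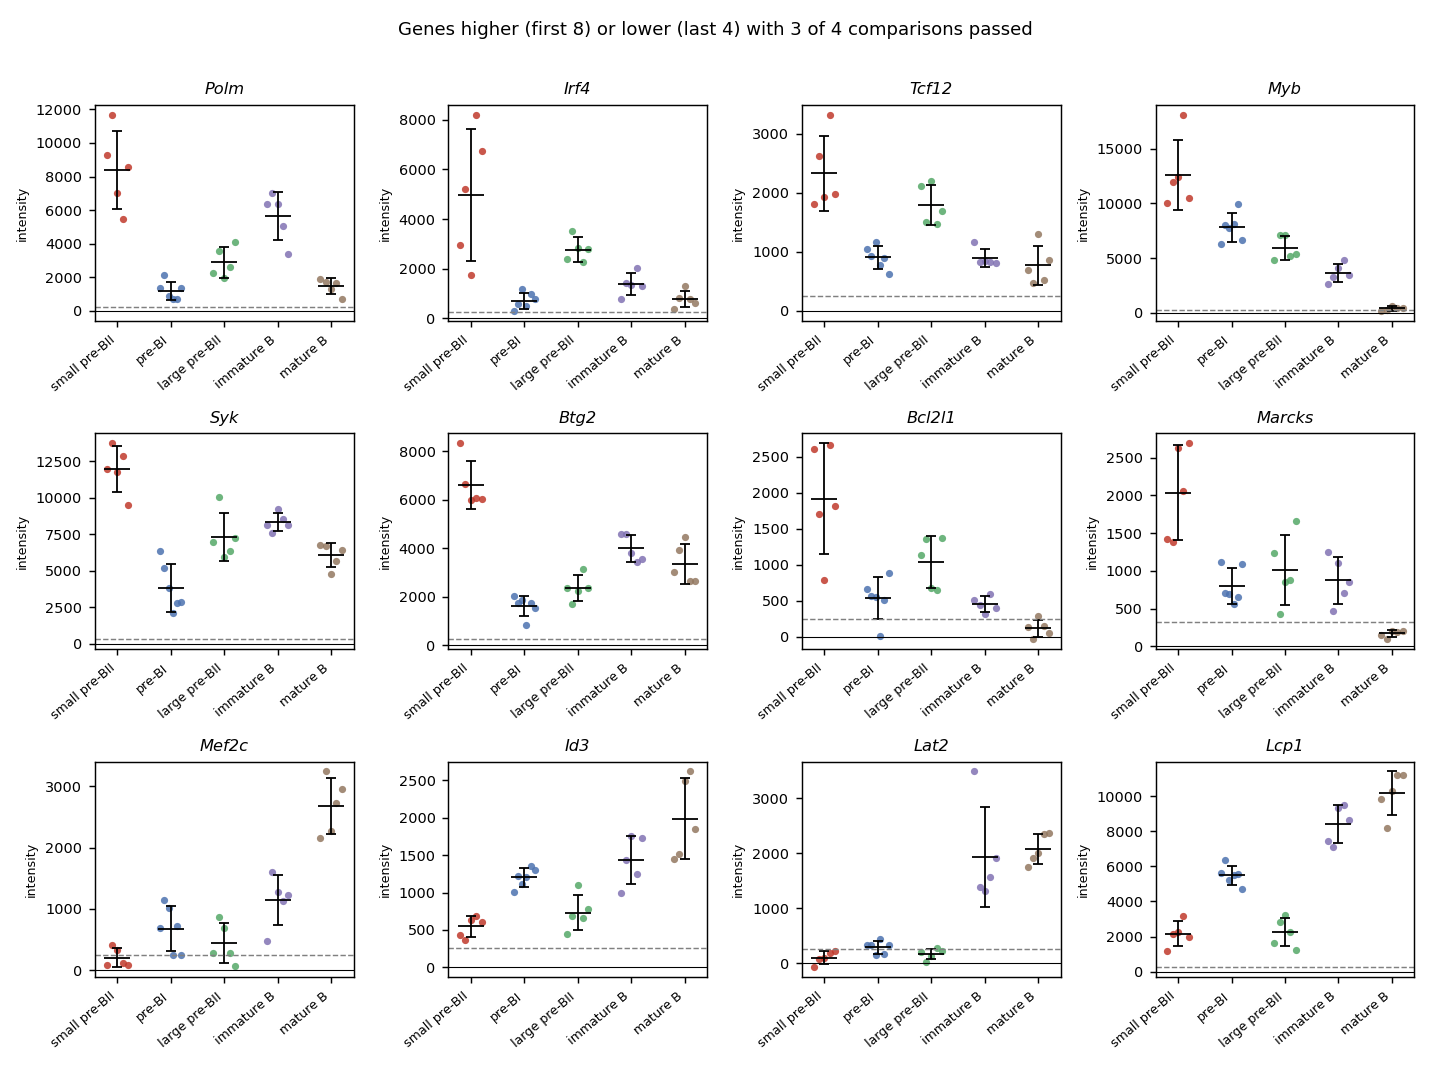
Normalised intensity of 12 genes that were higher (first 8 panels) or lower (last 4) in small pre-BII cells than in the other populations with 3 of 4 comparisons passed, with 1 point per preparation, the mean as a bar, ± SD, and the noise limit as a dashed line. In most panels 1 neighbouring stage, large pre-BII or immature B, lies closest to small pre-BII cells.

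Gene groups were counted in each comparison, with 1 probe set a gene. Against pre-BI cells 357 probe sets were higher in small pre-BII cells (3.49% of those tested) and 481 lower (4.7%). Against large pre-BII cells 234 were higher (2.29%) and 329 lower (3.22%). Against immature B cells 93 were higher (0.909%) and 136 lower (1.33%), and against mature B cells 240 were higher (2.35%) and 233 lower (2.28%). Over the 5027 genes tested, 218 were higher and 312 lower against pre-BI cells, 148 and 202 against large pre-BII, 73 and 76 against immature B and 173 and 151 against mature B cells. Medians below are log2 differences on the scale of the fit, where those of all genes were 0.04, 0.06, 0.01 and 0.01 against these 4 populations, and, where said, on values raised to the noise limit, where those of all genes were 0.

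The genes of cell division separated small pre-BII cells from both dividing precursors. Of 36 measured G2 and mitosis genes, 27 were lower against pre-BI cells and 35 against large pre-BII cells, and none was higher, with medians of -1.92 and -3.11 (-1.58 and -2.74 on raised values). Mki67 was 7.77-fold lower in small than in large pre-BII cells (limma adjusted p = 8.2e-10), and Prc1, a protein of the dividing spindle, averaged 13 in small pre-BII cells against 3210 in large ones, at least 12.7-fold lower (6.87e-15). Against immature B cells 4 of the 36 were higher and none lower, and against mature B cells 6 were higher and 1 lower. Mki67 averaged 1700 ± 587 in small pre-BII cells, against 618 ± 66.4 in immature and 462 ± 69.5 in mature B cells (limma adjusted p = 0.000218 and 2.06e-06). Cyclin B2 (Ccnb2) averaged 708 ± 279, against 262 ± 32.5 and 211 ± 47.4 (0.000647 and 1.7e-05), while Prc1 did not exceed the limit on average in any of these 3 populations.

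Replication genes were lower against the same populations. Of 34 measured, 25 were lower against pre-BI cells and 27 against large pre-BII cells, none higher, with medians of -1.88 and -2.05 (-0.99 and -1.3 on raised values). Mcm2, of the replicative helicase, averaged 484 in small pre-BII cells, against 2130 in pre-BI cells and 3320 in large pre-BII cells (limma adjusted p = 5.32e-05 and 1.59e-05). The ribonucleotide reductase subunit Rrm2 averaged 2120 ± 1600 in small pre-BII cells, against 429 ± 263 in immature B cells (at least 3.7-fold higher, adjusted p = 0.0102), and 2 genes in all were higher and 1 lower in that comparison, Rfc1 being the lower one. Against mature B cells 2 were higher and 2 lower. Of 30 genes of ribosome biogenesis and Myc-linked growth, 10 were lower against pre-BI cells and 4 against large pre-BII cells, none higher, and nucleolin (Ncl) averaged 499 ± 395 in small pre-BII cells, against 2420 ± 1040 and 1310 ± 267 (adjusted p = 0.00118 and 0.0411).

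Of 19 genes that hold back the cell cycle, 6 were higher and 2 lower against pre-BI cells, 2 and 2 against large pre-BII, 1 and none against immature and 2 and none against mature B cells. The anti-proliferative gene Btg2 averaged 6610 ± 994 in small pre-BII cells, against 1630 in pre-BI cells, 2350 in large pre-BII, 4000 in immature and 3340 in mature B cells, and passed except against immature B cells (adjusted p = 0.0755). Ccng2, a cyclin of resting cells, averaged 2300 ± 182 and was 2.02-, 1.73- and 1.96-fold higher than in pre-BI, immature and mature B cells (limma adjusted p = 1.18e-05, 0.00147 and 5.22e-05), and did not pass against large pre-BII cells, which averaged 2480. Cyclin D2 (Ccnd2) averaged -86.1 in small pre-BII cells and 821 in pre-BI and 2140 in immature B cells, at least 3.04- and 8.23-fold lower (5.93e-09 and 3.71e-11). Of 18 survival genes, 6 were higher and none lower against pre-BI cells, 4 and none against large pre-BII, 1 and 1 against immature and 2 and 1 against mature B cells. Bcl2l1, which encodes the survival protein Bcl-xL, averaged 1920 ± 769 in small pre-BII cells, against 535 in pre-BI cells, 1040 in large pre-BII, 456 in immature and 121 in mature B cells, and did not pass against large pre-BII cells (0.435).

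**Figure D5:**
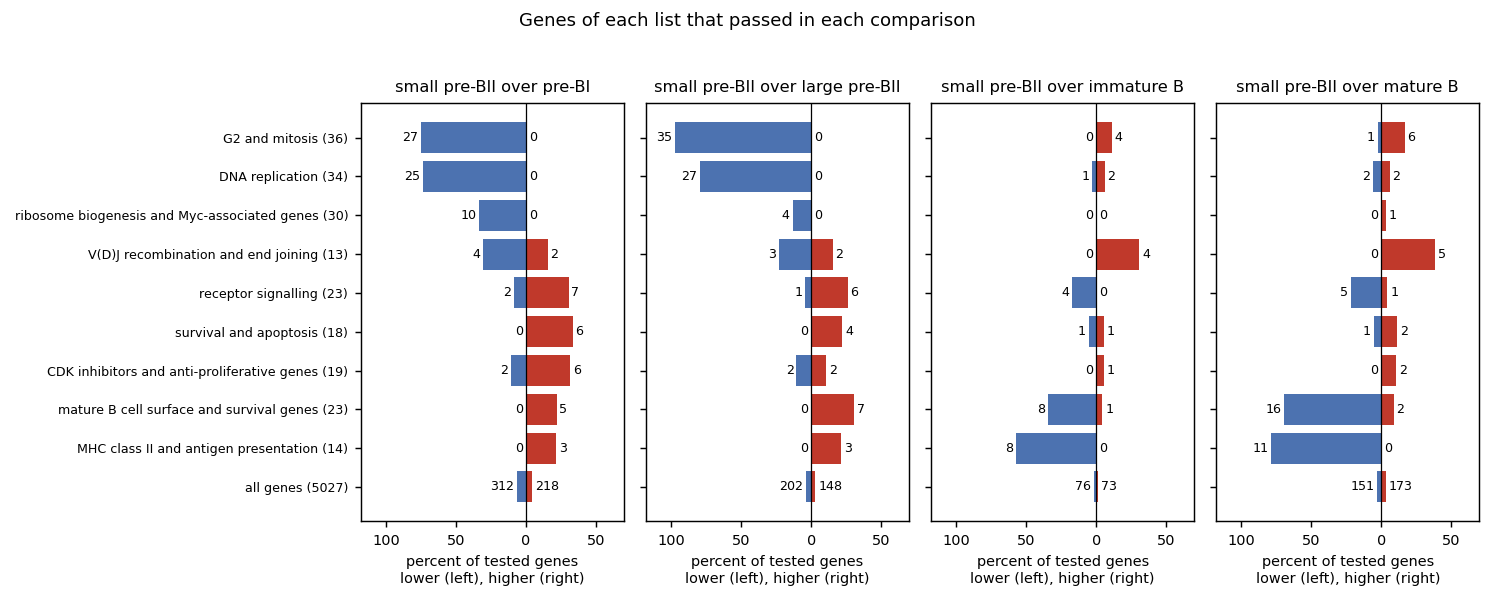
Percent of the measured genes of 9 groups, and of all genes, that were lower or higher in small pre-BII cells in each of the 4 comparisons, with counts beside the bars. Cell division and replication genes are lower against both dividing precursors, and class II and mature B cell genes are lower against both later stages.

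The V(D)J recombination and end joining list did not move as 1 group. Of 13 measured, 2 were higher and 4 lower against pre-BI cells and 2 and 3 against large pre-BII cells, with medians of 0.03 and 0.09 that were close to those of all genes, and the first turned to -0.01 with 75th-percentile or trimmed-mean scaling. With the floor at the noise limit they were -0.09 and -0.03. Against immature B cells 4 were higher and none lower and against mature B cells 5 and none, with medians of 0.57 and 1.04 (0.24 and 0.5 on raised values). Rag1 was the only member higher in all 4. Rag2, the partner of Rag1, averaged 558 ± 172 in small pre-BII cells, against 546 ± 444 in pre-BI cells and 274 ± 412 in large pre-BII cells, which did not pass (limma adjusted p = 0.82 and 0.289). It was at least 2.13-fold higher than in immature and mature B cells (0.00408 and 0.00209). The lower members held Dntt, the terminal transferase that adds bases at heavy chain joints, at 86 in small pre-BII and 8030 in pre-BI cells (at least 25.2-fold lower, 3.33e-07).

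Of 6 measured immunoglobulin genes, 2 were higher against pre-BI and 1 against large pre-BII cells. The lambda constant gene Iglc1 averaged 5410 ± 1410 in small pre-BII cells, against 899 ± 253 in pre-BI cells, 323 ± 91.6 in large pre-BII, 7360 ± 962 in immature and 2120 ± 607 in mature B cells (SD). It was 6.06- and at least 16.5-fold higher than in pre-BI and large pre-BII cells (limma adjusted p = 9.39e-09 and 7.34e-12), 2.57-fold higher than in mature B cells (0.000365), and did not pass against immature B cells (0.537). Probes for constant regions share sequence among the lambda genes, so the value may hold more than 1 of them. Surrogate light chain and early progenitor genes numbered 19, of which 1 was higher and 5 lower against pre-BI cells. Igll1 (lambda5) averaged 48.1 in small pre-BII cells, against 3440 in pre-BI cells and 429 in large pre-BII cells, at least 8.8-fold lower than in pre-BI cells, and passed against both (1.07e-06 and 0.00676).

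Of 23 measured surface and survival genes of mature B cells, 5 were higher and none lower against pre-BI cells, 7 and none against large pre-BII, 1 and 8 against immature and 2 and 16 against mature B cells, with medians of 0.75, 0.77, -1.01 and -2.06 (0.13, 0.15, -0.31 and -1.38 on raised values). Il4ra, the interleukin 4 receptor chain, passed in all 4 comparisons in this order, at 455 ± 224 in small pre-BII cells, against 82.9 in pre-BI cells, 76.4 in large pre-BII, 1600 in immature and 3450 in mature B cells. Of 14 class II and antigen presentation genes, 3 were higher and none lower against each of pre-BI and large pre-BII cells, and none was higher and 8 and 11 lower against immature and mature B cells (medians -1.61 and -2.8, or -1.16 and -2.72 on raised values). Cd74, the invariant chain, averaged 4120 ± 901 in small pre-BII cells, against 1070 ± 802 in pre-BI cells, 1440 ± 350 in large pre-BII, 18700 ± 3600 in immature and 20300 ± 1750 in mature B cells, and Ctss, the protease that trims it, 3930 ± 1100, against 2330, 1190, 7320 and 7980. Both passed in all 4 comparisons. The class II chain gene H2-Eb1 did not exceed the limit on average in small pre-BII cells, at -229 ± 166, against 4480 in immature and 15000 in mature B cells.

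Receptor signalling genes showed 7 of 23 higher and 2 lower against pre-BI cells, 6 and 1 against large pre-BII, 0 and 4 against immature and 1 and 5 against mature B cells. Cd79b, a signalling chain of the receptor, averaged 11900 ± 1540 in small pre-BII cells, against 4670 in pre-BI cells, 6070 in large pre-BII, 12800 in immature and 10300 in mature B cells, with passes against both precursors (limma adjusted p = 1.54e-05 and 0.00441). The inhibitory receptor Cd22 averaged 347 ± 264 in small pre-BII cells, against 3190 and 3680 in immature and mature B cells (3.35e-05 and 7.31e-06). Of 28 transcription factors of light chain locus opening and the B lineage, 4 were higher and 2 lower against pre-BI, 1 and none against large pre-BII, 3 and 3 against immature and 5 and 4 against mature B cells. Ribosomal protein genes, 31 in all, had none to 2 changed genes in each direction in every comparison, and of 23 oxidative phosphorylation genes 3 were lower against pre-BI cells, 1 was higher against mature B cells and none passed in the other comparisons.

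Markers of other marrow cells were measured beside these results, and their part in them was not tested. The summed intensity of 19 granulocyte and monocyte markers was 5614 to 8782 in small pre-BII preparations, against 10362 to 27970 in pre-BI, 6087 to 14143 in large pre-BII, 7085 to 10319 in immature and 10121 to 13743 in mature B cells. Its brightest members in small pre-BII cells were Ngp and Lyz2, both at 1780, against 4190 and 5500 in pre-BI cells. Fcer1g and Cd14 also exceeded the noise limit in all 5 small pre-BII preparations, S100a9 in 3 and S100a8 in 2. Mpo and Csf1r did not exceed the limit in any preparation of any population. The sum of 12 erythroid markers was 8407 to 17219 in small pre-BII preparations, against 11462 to 25426 in pre-BI, 14014 to 23540 in large pre-BII, 15460 to 21106 in immature and 18074 to 24716 in mature B cells, with Hba-a1 at 8680 and Hbb-b2 at 2790 the brightest. Of 13 T and NK cell markers, Cd3e was over the limit in sorts 3, 8 and 9 of small pre-BII cells (mean 243), while Cd3d and Cd3g did so in none. The sum of 7 plasma cell markers was 2214 to 8831 in small pre-BII preparations, against 852 to 2063 in pre-BI, 2835 to 4070 in large pre-BII, 1886 to 2822 in immature and 766 to 1856 in mature B cells. Irf4 made up most of it, and of the other plasma cell genes Sdc1 and Igha exceeded the limit in none of the 5, Jchain and Prdm1 in 1 each and Xbp1 in 3. Xbp1 averaged 288 in small pre-BII cells, against 201, 176, 416 and 294 in pre-BI, large pre-BII, immature and mature B cells. The mast cell genes Tpsab1 and Tpsb2 averaged 647 and 455 in small pre-BII cells, against 744 and 438 in pre-BI, and the platelet gene Gp5 did not exceed the limit in any preparation.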

How the data were processed

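Each array's probe set intensities were deposited by the authors as a linear table per array set. Labelling, scanning and summarisation are not stated in the sources used here. Per array, 19.7 to 28% of first-set values and 33.9 to 42.3% of b-set values were negative. Groups and sort numbers were read from the titles, second arrays of a preparation were averaged with the first, and gene symbols came from the platform annotation, updated through gene identifiers: of 13069 probe sets left after removal of 110 controls, 7542 had 1 symbol, 224 several and 5303 none.

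Each table was quantile-normalised, given a floor at its 40th percentile (87.6 and 6.89), and log2-transformed. A probe set was tested if 5 or more of the 26 preparations exceeded the floor, which kept 5019 and 5210 of the 2 sets. All preparations entered 1 fit (limma 3.58.1, eBayes with a trend, in R 4.3.3), p-values were adjusted by Benjamini-Hochberg per comparison, and the threshold was 0.05. The fit was run on simulated data with planted differences in brighter probe sets and independent noise. Those data had no floor or batches of sorts, so the run does not bear on calls that depend on them. The noise limit, and folds on that scale, were chosen after values had been seen. The members, lists and alternatives were chosen with earlier results of these data known.

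Named genes were the sort-gate genes and Reln, Prm1 and Rag1, every called probe set with a symbol, up to 4 called members of each list or else the 2 that passed most comparisons, the 2 brightest genes of other cell types and the genes next to the threshold. Polm, Irf4, Rag2, Dntt, Iglc1, Prc1, Mcm2, Ccnd2, Cd22, H2-Eb1, Socs1, Prm2, Lat2, Lcp1, Eps8, Pim2 and a few other genes of the lists were named after their values had been seen.

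Equal sort numbers do not, by the labels, mean a shared day or animal. Deviations from population means of equal-numbered preparations correlated at 0.137 to 0.251 between small pre-BII and immature B cells, which share only sorts 1, 8 and 9, and these numbers were taken to pair. With pre-BI (-0.0744 to 0.205), large pre-BII (0.00324 to 0.243) and mature B cells (-0.00767 to 0.169) not every pair exceeded 0.1. Preparations with unequal numbers were not correlated, so these values have no baseline and cannot show that equal numbers pair. The main fit held no block for sort number, and the counts with such a block are given beside its own.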

Additional observations from a re-analysis of the deposited data

Results flagged for a closer look

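Of 79 groups of preparations of the 19 probe sets and their populations, 6 held a preparation far from the others by Dixon's criterion, and chance alone flags about 1 in 20 groups. In small pre-BII cells this was Ttc7b in sort 10, at 1860, above the other preparations of that population. In pre-BI cells Adam10 in sort 10 was low at 442, Gstm1 in sort 10 was low at 941 and Rfc1 in sort 3 was low at 341. In large pre-BII cells Sec61a1 in sort 2 was low at 1175 and Rfc1 in sort 10 was low at 685.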

How the results depend on the processing

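None of the 19 probe sets changed direction in any comparison under the alternatives in which it was tested. With the floor at the noise limit 17 of the 19 had a value, and Z50013_s_at and the higher probe set without a symbol had none. All alternatives reused the data from which the 19 were selected. The balance of calls against mature B cells did turn, from 240 higher and 233 lower to 193 and 208 with 75th-percentile scaling and 204 and 221 without a variance trend, and the V(D)J median against pre-BI cells changed sign as given with it. The counts of 13 higher and 6 lower probe sets depended on the processing. The higher count was 6 with 75th-percentile scaling, 7 with a floor at the 25th percentile, 30 with one at the 60th percentile, 32 with the floor at the noise limit (12 of the 13 shared) and 8 without a variance trend. The lower count was 5 with the floor at the noise limit (3 of the 6 shared) and 5 with one at the 60th percentile (4 shared). It was 4 with second arrays left out (4 shared) and 8 with a floor at the 25th percentile (all 6 shared). With sort number as a replicate block there were 22 higher (all 13 shared) and 10 lower probe sets (4 of 6 shared). Values as deposited gave 4 and 2, and moved the 4 comparisons with pre-BI, large pre-BII, immature and mature B cells to 269, 201, 72 and 161 calls from 838, 563, 229 and 473. That setting put 20.9% of calls against large pre-BII cells on the higher side, where quantile normalisation put 41.6%. It also moved the median log2 difference of all probe sets from pre-BI cells to 0.163, against 0.053. Within sorts 1 to 3 there were 1 higher and 1 lower probe sets and 161, 120, 44 and 98 calls, and within sorts 8 to 11 there were 7 and 3, with 353, 121 and 296 calls against large pre-BII, immature and mature B cells. None of the lower probe sets called within either batch was among the 6 of the main fit. Fewer preparations entered these fits. Leaving out 1 preparation gave 8 to 16 higher and 4 to 9 lower, the least (8) without small pre-BII sort 8 or sort 10. For the 4 comparisons those ranges were 710 to 845, 494 to 578, 187 to 238 and 397 to 488. Apart from the smaller fits, the cause of these moves was not tested. A variance trend within each array set, chosen after the data were seen, gave 11 and 6. Across the 14 alternatives Reln was called in all, Prm1 and Cerk in 12, Rag1 in 10 and Adam10 and Nnt in 7. Only 20.1% of b set values exceeded the noise limit, so called probe sets that are dim there have a bound or no fold.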
